A study of Rattus norvegicus with 8 samples.

Results

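The 30 genes described here carry out or direct protein folding in the endoplasmic reticulum and its stress response, and they were listed by their known roles, at a time when earlier results of these data were known. Of the 30, 29 had a probe set with a single gene name on the arrays, and all 29 were measured, that is, brighter than the median probe set on at least 2 arrays, among 10513 measured genes in all. They had 39 probe sets, 35 of them measured, and the brightest stood for the gene. They comprise 4 sensors and transcription factors, 6 targets of the transcription factor ATF4, 14 chaperones and folding enzymes of the lumen, and 5 genes of degradation and translocation. Ern1, the gene of the sensor IRE1, had no such probe set and is not analysed here.

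RNA of rat granulosa cells, the somatic cells of the ovarian follicle, was measured on 8 one-colour Affymetrix arrays. The design text of the series says that immature rats were given eCG, a gonadotropin that drives follicle growth. After 24 h came either an antibody against eCG, which sends follicles into atresia, or pre-immune serum, which lets them develop. The labels name each array only by a number and give no treatment, so no array was placed in either group and no treatment comparison was made. Strain, and whether animals were pooled, are not given in the sources used here. Values below run in the order of arrays 2074, 2076, 2194, 2195, 2196, 2197, 2198 and 2199.

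Secreted and membrane proteins enter the endoplasmic reticulum as unfolded chains, and chaperones, disulfide isomerases and lectins fold them there. When unfolded chains accumulate, the sensors PERK, ATF6 and IRE1 are released from the chaperone BiP. PERK slows translation and favours the making of ATF4, ATF6 is cleaved to a transcription factor, and IRE1 splices the Xbp1 messenger RNA. Granulosa cells secrete inhibins and matrix proteins and so depend on this machinery. Splicing, cleavage and phosphorylation, the steps by which the sensors are switched on, are not measured by a probe set's signal.

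Signals are linear intensities after scaling each array to a common median, and only values of the same probe set were compared, since brightness between probe sets is no measure of abundance. The floor, the signal at each array's 40th percentile, ran from 273 to 471, and lower values have no order. Spread is given as the inner range: the array ranked second from the top over the one ranked second from the bottom, so that no single extreme array sets it. Of the cell type markers with a probe set, those measured were 8 of 8 for granulosa cells, 2 of 5 for the oocyte, 8 of 9 for theca and stroma, 6 of 8 for immune cells, 3 of 5 for endothelium and 2 of 2 for red cells. Inha, the inhibin alpha subunit, lay between 26724 and 90530.1. In whole-cell RNA, fewer cells of a type and less RNA per cell cannot be told apart. The p-values below are of correlations between genes. Before adjustment, each is the share of array orders that give a correlation at least as strong in either direction. They treat the arrays as interchangeable, which the labels do not show. The labels also do not say that arrays came from separate animals, so the p-values hold for these arrays only.

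The folding and stress genes had a spread over the arrays near that of measured genes in general, with Hyou1 and Ppp1r15a the widest. The median inner range was 1.63-fold in the 29 members and 1.71-fold in all measured genes, and 12 of the 29 lay above 1.71-fold. The inner range reached 2-fold in 6 members (20.7%), against 29.8% of all measured genes. These 6 were Hyou1, Ppp1r15a, Trib3, Pdia4, Dnajb9 and Manf. Within the groups the median was 1.71-fold in the sensors and transcription factors, 1.74-fold in the ATF4 targets, 1.72-fold in the lumenal genes and 1.53-fold in the degradation and translocation genes. The spread of single genes ran from 1.20-fold in Herpud1 to 6.87-fold in Hyou1.

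**Figure D1:**
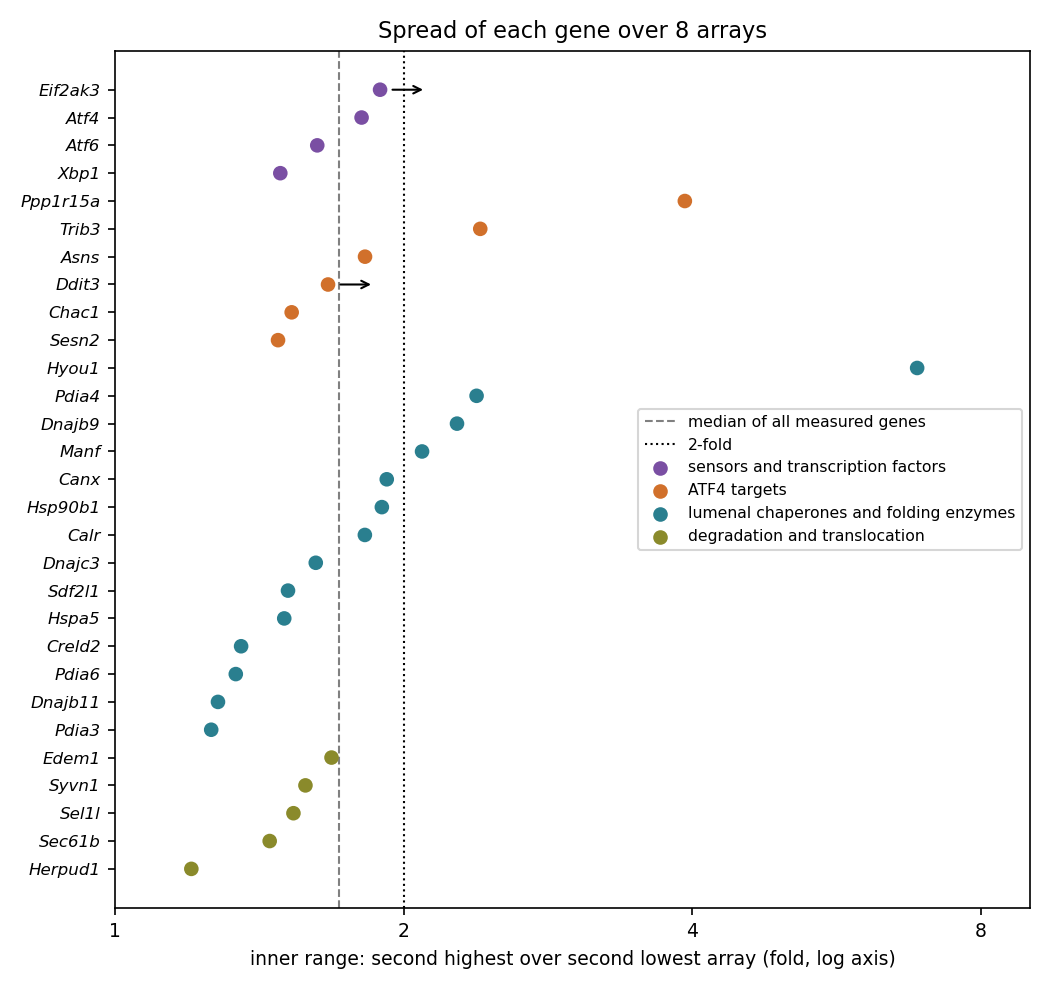
Inner range of each of the 29 genes (fold, log axis), 1 point per gene, coloured by role; arrows mark lower bounds, the dashed line the median of all measured genes (1.71-fold) and the dotted line 2-fold. Hyou1 at 6.87-fold and Ppp1r15a at 3.93-fold stand farthest to the right, and all 5 degradation and translocation genes lie under 2-fold.

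The promoters hold short letters that the stress factors are known to read, and these are shown because genes that share the ERSE did not all share a pattern over the arrays. The 250 bases before the start were taken from RefSeq's promoter table (GRCr8) for 25 members, with no entry for Ern1, Atf6, Manf, Pdia3 and Pdia6. The members had 26 promoters, and a gene was counted with a motif if any of its promoters held it. Both strands were searched for the endoplasmic reticulum stress element (ERSE, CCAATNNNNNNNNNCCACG), its second form (ERSE-II, ATTGG and CCACG with 1 base between them), the unfolded protein response element (UPRE, TGACGTGG) and the C/EBP-ATF response element (CARE, TGATGNAA). ATF6 with the factor NF-Y is known to bind the first 2, ATF6 and XBP1 the UPRE, and ATF4 with a C/EBP partner the CARE. Each sequence is printed 5′ to 3′ on the gene's strand, with the motif in capitals, turned round where the match is on the opposite strand. The 4 genes shown first, then Hyou1, were picked because arrays 2074 and 2076 set them apart from the other arrays, as described further on, Trib3 and Chac1 because the pair did not, and Herpud1 because it did so only without scaling or with quantile normalization.
Hspa5 ERSE, chr3:38452953-38453011, plus strand: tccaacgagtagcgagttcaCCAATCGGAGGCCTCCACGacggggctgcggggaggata
Hsp90b1 ERSE nearer the start, chr7:23012327-23012385, minus strand: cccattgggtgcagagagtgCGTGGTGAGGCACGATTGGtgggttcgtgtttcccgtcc
Hsp90b1 ERSE farther from the start, chr7:23012431-23012489, minus strand: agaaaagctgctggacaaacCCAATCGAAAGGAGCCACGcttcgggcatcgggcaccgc
Xbp1 ERSE, chr14:84604538-84604596, plus strand: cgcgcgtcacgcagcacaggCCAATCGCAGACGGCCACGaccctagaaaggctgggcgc
Dnajc3 ERSE, chr15:102432514-102432572, plus strand: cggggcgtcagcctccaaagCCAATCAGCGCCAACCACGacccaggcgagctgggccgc
Hyou1 ERSE-II farther from the start, chr8:53602674-53602724, plus strand: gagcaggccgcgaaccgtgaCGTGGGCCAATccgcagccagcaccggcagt
Hyou1 ERSE-II nearer the start, chr8:53602774-53602824, plus strand: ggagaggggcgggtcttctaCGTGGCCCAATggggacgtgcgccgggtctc
Herpud1 ERSE-II, chr19:10614801-10614851, minus strand: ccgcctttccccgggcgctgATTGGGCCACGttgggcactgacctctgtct
Trib3 CARE, chr3:161275534-161275574, minus strand: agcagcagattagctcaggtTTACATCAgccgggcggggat
Chac1 CARE, chr3:126795944-126795991, plus strand: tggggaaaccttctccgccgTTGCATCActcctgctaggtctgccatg

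The ERSE was found in 7 of the 25 member genes (28%), against 21 of 27457 genes in the table (0.0765%). Of the 11733 genes in it that the arrays name, 17 held it (0.145%). The members were listed by their known roles in this response, so these shares describe the list and test nothing. The 7 were Hspa5, Hsp90b1, Calr, Canx, Creld2, Dnajc3 and Xbp1, 6 of them lumenal genes, of which 11 had a promoter entry. The motif of Hspa5 ended 24 bases before the start, that of Xbp1 46 bases and those of Hsp90b1 53 and 157 bases. The ERSE-II was found in Hyou1 and Herpud1 (8%, against 0.051% of all genes in the table and 0.0852% of those on the arrays). The UPRE was found in Hyou1 alone of the members (4%, against 0.594% and 0.793%), and it overlaps the ERSE-II farther from the start. A further promoter entry of Hyou1 held none of these motifs. The CARE was found in Trib3, Chac1 and Herpud1 (12%, against 3.58% and 2.2%), of which Trib3 and Chac1 are among the 6 ATF4 targets. These are matches of letters, and a promoter without one says only that the letters are not in that window.

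Among the sensors and transcription factors, 0 of 4 reached an inner range of 2-fold, against 29.8% of all genes. With quantile normalization 2 did, Eif2ak3 at 2.13-fold and Atf4 at 2.06-fold. Eif2ak3, which encodes PERK, gave 883.3, 612, 690.2, 248.6, 366.6, 133.2, 692.9 and 504.6. It was under the floor on arrays 2195 and 2197, and its inner range was at least 1.89-fold (2.79-fold without the floor). Atf4, the factor translated when PERK is active, gave 16089.4, 18669.6, 9961.4, 11212.9, 10978.2, 8899.8, 12447.9 and 6122.9 (1.81-fold). Arrays 2074 and 2076 lay above the other 6, and array 2199 was lowest. Xbp1, whose messenger RNA is the substrate of IRE1, gave 15312, 12705.5, 11956, 9315, 12092, 10474, 8543 and 8125 (1.49-fold). The pair 2074 and 2076 was again above the rest, here by only 1.05-fold at the nearest values. Atf6, the sensor that is itself a transcription factor, ran from 3681 on array 2198 over a median of 5637 to 7244 on array 2076 (1.63-fold).

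Among the ATF4 targets, Ppp1r15a varied most and Sesn2 least. Ppp1r15a encodes GADD34, which restores translation by directing the removal of phosphate from eIF2alpha. Its signals were 2179, 3696, 1332, 554, 1411, 746, 1698 and 504, an inner range of 3.93-fold that exceeded that of 98.6% of measured genes. Arrays 2074 and 2076 were above the other 6, and arrays 2195 and 2199 were lowest. Trib3, a pseudokinase that restrains ATF4, gave 565, 49.1, 443, 1288, 409.6, 693, 933 and 388 (2.40-fold). Its lowest value, on array 2076, was under the floor, so Trib3 was lowest on the array where Ppp1r15a was highest. Ddit3, which encodes the pro-apoptotic factor CHOP, gave 785.5, 603, 770.3, 137, 409.7, 600.1, 804 and 489, an inner range of at least 1.67-fold. It was under the floor on array 2195, where Trib3 was highest.

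The other 3 targets act in metabolism. Asns, which makes asparagine, ran from 10168 on array 2199 over a median of 21907 to 36802 on array 2076 (1.82-fold). Chac1, which degrades glutathione, ran from 708 on array 2197 over 1206.5 to 1699.5 on array 2195 (1.53-fold). Sesn2, a sensor of leucine that restrains growth signalling, ran from 1140.2 on array 2198 over 1647 to 1958 on array 2195 (1.48-fold). The 6 targets thus had their highest signal on 3 different arrays, 3 of them on array 2195, 2 on array 2076 and 1 on array 2198. Over all measured genes 23.6% were highest on array 2195, 12.1% on array 2076 and 14.5% on array 2198.

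**Figure D2:**
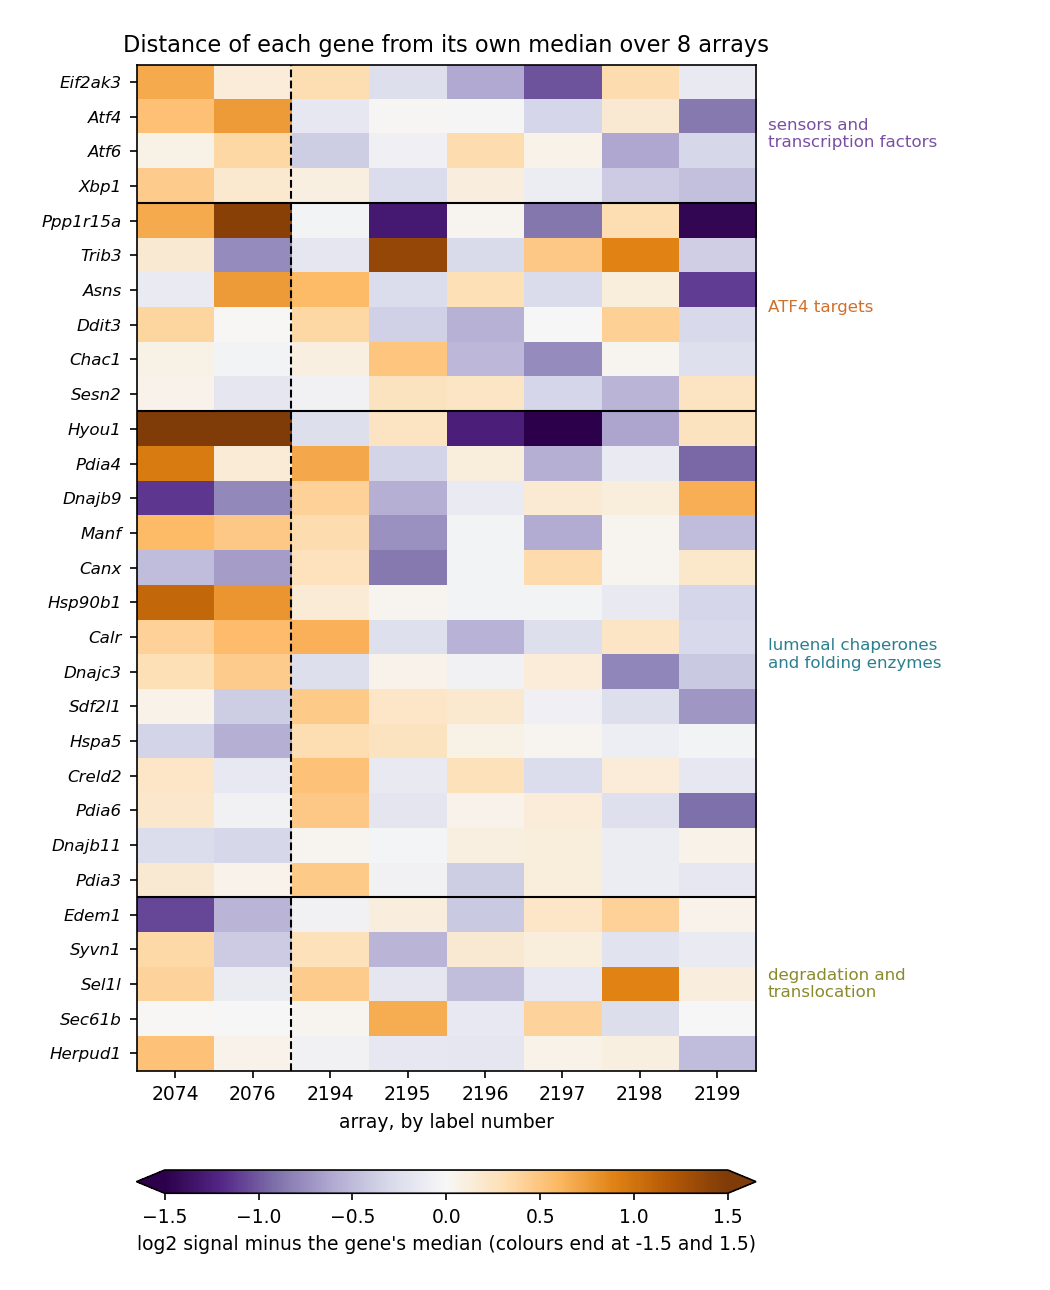
Log2 signal minus the gene's own median over 8 arrays, 29 genes down and arrays across, grouped by role; brown is above and purple below the median, and the dashed line separates arrays 2074 and 2076 from the other 6. Hyou1 is brown on the first 2 arrays, where its signals were 3811 and 3394, and Hspa5 and Dnajb9 are purple there.

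Among the lumenal chaperones of the Hsp70 and Hsp90 families, Hspa5 parted from Hsp90b1 and Hyou1 on arrays 2074 and 2076. Hspa5, which encodes BiP, the main Hsp70 of the lumen, gave 42736, 36484, 67128, 64161, 56793, 55400.1, 50757 and 52476 (1.5-fold). Arrays 2074 and 2076 were the lowest, under the next array by 1.19-fold. Hsp90b1, which encodes GRP94, the lumenal Hsp90, gave 44478 and 36463 on that pair, whereas the other 6 lay between 16845 and 23182 (1.90-fold, median of all arrays 21025). Here the pair was the highest, above the next array by 1.57-fold. Hyou1, the large Hsp70 relative that exchanges the nucleotide of BiP, gave 3811, 3394, 1004, 1391.5, 494, 173, 762 and 1406. Its inner range of 6.87-fold exceeded that of 99.9% of measured genes, and the pair lay above the other 6 by 2.41-fold. The value on array 2197 was under the floor.

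Leaving out 1 array changed the spread of Hyou1 and Hsp90b1. Without array 2074 or 2076 the inner range of Hyou1 was 2.85-fold and that of Hsp90b1 1.21-fold. Without array 2196 or 2197 that of Hyou1 was 4.47-fold. No other member moved by more than 1.5 times when 1 array was left out.

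**Figure D3:**
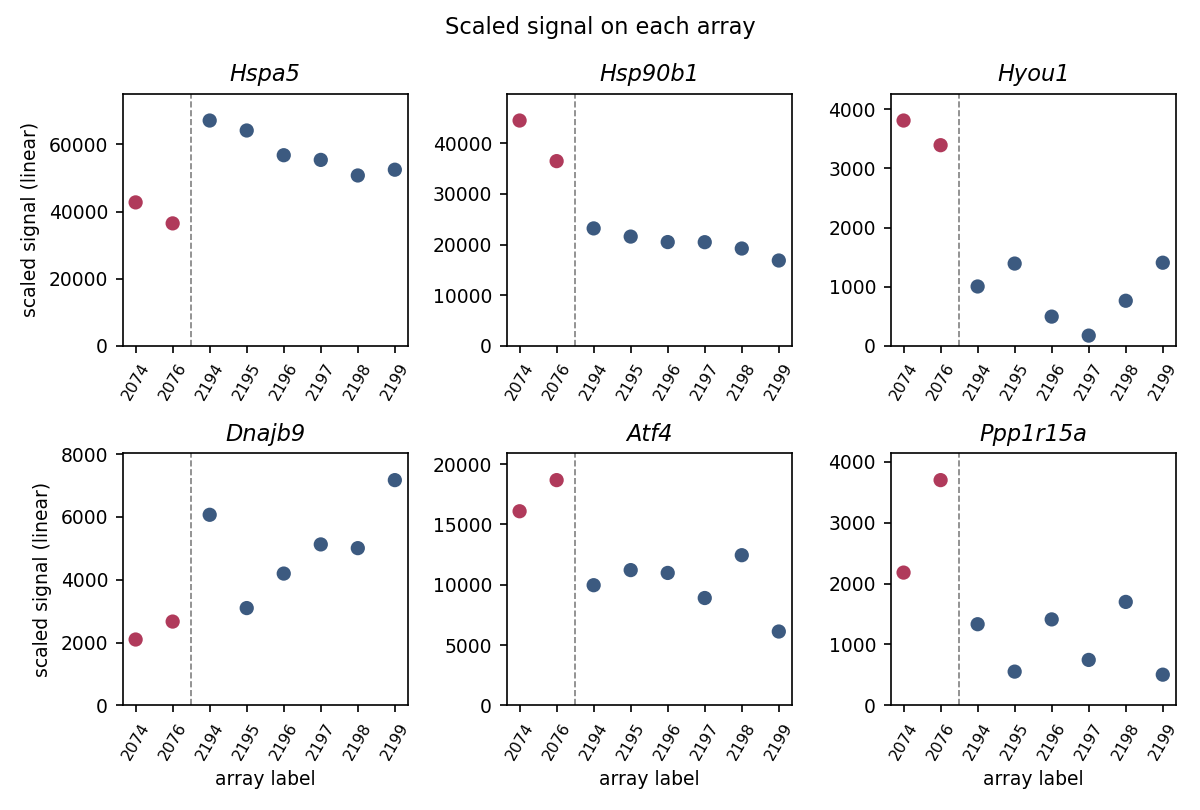
Scaled signal (linear axis from 0) of 6 genes on each of 8 arrays, red for arrays 2074 and 2076 and blue for the other 6, 1 point per array. Hsp90b1, Hyou1, Atf4 and Ppp1r15a are higher on the 2 red points than on any blue one, and Hspa5 and Dnajb9 are lower.

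Co-chaperones of the Hsp40 family split in direction as well. Dnajb9, known as ERdj4, a cofactor of BiP that also restrains IRE1, gave 2098 and 2669.8 on arrays 2074 and 2076, whereas the other 6 lay between 3099 and 7174 (2.27-fold). Dnajb11, known as ERdj3, gave 6125 and 5909.7 on the pair, whereas the other 6 lay between 6831 and 7966 (1.28-fold). Dnajc3, known as P58IPK, gave 8921 and 9928.5 on the pair, whereas the other 6 lay between 4209 and 8009 (1.62-fold). The pair was thus below all other arrays in the first 2 genes and above them in the third. Sdf2l1, which forms a complex with Dnajb11, ran from 1239 on array 2199 over 2031 to 2795 on array 2194 (1.51-fold). Manf, a secreted protein that binds BiP, gave 11522 and 10681 on the pair, whereas the other 6 lay between 4649.9 and 9655 (2.09-fold).

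Disulfide isomerases varied to different degrees. Pdia4, known as ERp72, gave 8969.8, 5177.5, 7494, 3702, 5095, 3145, 4268 and 2426.5 (2.38-fold). It was highest on arrays 2074 and 2194 and lowest on array 2199. Pdia6 ran from 13715 on array 2199 over 25736.5 to 35843.5 on array 2194 (1.34-fold). Pdia3, which acts with the lectins on glycoproteins, ran from 16423 on array 2196 over 21409 to 29453 on array 2194 (1.26-fold). Creld2, a stress-induced protein with isomerase activity, ran from 4879.6 on array 2197 over 5907 to 8473 on array 2194 (1.35-fold).

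The lectin chaperones hold glycoproteins until they are folded. Calr, the soluble calreticulin, ran from 7109 on array 2196 over 10541 to 16209.6 on array 2194 (1.82-fold). Canx, the membrane-bound calnexin, ran from 15734 on array 2195 over 28707 to 36251.5 on array 2197 (1.92-fold).

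Of the degradation and translocation genes, 0 of 5 reached 2-fold, against 29.8% of all genes. Their median of 1.53-fold was the lowest of the 4 groups, but not without array 2076 (1.46-fold, against 1.40-fold in the sensors and transcription factors and 1.42-fold in the lumenal genes) or without array 2196 (1.51-fold, against 1.48-fold in the sensors and transcription factors). Nor was it with the filter on all 8 arrays, where it was 1.535-fold, against 1.528-fold in the ATF4 targets. Edem1, which directs misfolded glycoproteins to degradation, gave 4638, 6755, 9434, 10582, 7386, 11361.5, 12899 and 10099.8 (1.68-fold). Arrays 2074 and 2076 were below the other 6. Syvn1, the ubiquitin ligase HRD1, gave 2469.7, 1482, 2341.5, 1339.6, 2186, 2111, 1677 and 1780.7 (1.58-fold), highest on array 2074 and second lowest on array 2076. Sel1l, which stabilises HRD1, ran from 634 on array 2196 over 886 to 1643 on array 2198 (1.53-fold). Herpud1, which brings HRD1 complexes together, ran from 6905 on array 2199 over 9714.5 to 13927 on array 2074 (1.20-fold). Sec61b, a subunit of the channel through which new chains enter, ran from 32329 on array 2198 over 38527 to 61201 on array 2195 (1.45-fold).

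The label numbers 2074 and 2076 lie far from 2194 to 2199, and the labels do not say what separates them. Both arrays lay beyond all of the other 6 in 11 of the 29 members (37.9%), against 28.1% of all measured genes. They were above in 7 members (24.1%), against 13.6% of all genes, and below in 4 (13.8%), against 14.5%. Above were Atf4, Xbp1, Ppp1r15a, Hyou1, Manf, Hsp90b1 and Dnajc3. Below were Hspa5, Dnajb9, Dnajb11 and Edem1. Without scaling and with quantile normalization the same 11 genes lay on the same side, and Herpud1 was above as well, which made 12. When genes had to lie above the median on all 8 arrays, the count was 9 of 24 members, against 35.2% of all genes so chosen. Of the 7 genes with an ERSE, the pair was above in Hsp90b1, Xbp1 and Dnajc3, below in Hspa5 and within the range of the other 6 in Calr, Canx and Creld2. Of the 2 genes with an ERSE-II the pair was above in Hyou1. In Herpud1 array 2074 was above the other 6 and array 2076 within their range. Without scaling or with quantile normalization both were above. Trib3 and Chac1 hold a CARE as Herpud1 does. In Chac1 the pair was within the range of the other 6. In Trib3 array 2074 was within it and array 2076, under the floor, was below it.

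Of the 29 measured cell type markers, 5 also set the pair apart, against 28.1% of all genes. They were Hbb, Inha, the granulosa factor gene Foxl2 and Col1a2, above, and Csf1r, below. Hbb, a red cell gene, gave 45704 and 12573 on arrays 2074 and 2076, whereas the other 6 lay between 3709 and 9666. The 2 measured red cell markers summed to 48897 and 13218 on the pair, whereas the other 6 lay between 3797 and 10335. The 8 granulosa markers summed to 221675 and 152847, against 114198 to 181061. The 8 markers of theca and stroma summed to 7917 and 5613, against 3448 to 7964. The 6 immune markers summed to 8407 and 6120.1, against 5573 to 9416. The 3 endothelial markers summed to 810.3 and 736, against 303 to 2930.1, and the 2 oocyte markers to 859 and 1372, against 259.5 to 1878. Of these sums, that of the red cell markers alone had both arrays of the pair beyond the other 6. No measured marker was listed at 0. The part of these cells, or of whatever separates the label numbers, in the result was not tested.

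On array 2194 most lumenal genes lay above their own median, a pattern picked out after the values were seen. There, 12 of the 14 lumenal genes lay above their own median, against 52.4% of all measured genes, and 6 had their highest signal, against 9.68%. The 6 were Hspa5, Calr, Sdf2l1, Creld2, Pdia6 and Pdia3. The mean log2 distance of the 14 lumenal genes from their medians was 0.30 on array 2194, 0.24 on array 2074, 0.08 on array 2076 and -0.23 to -0.12 on the other 5. The sensors and transcription factors averaged -0.03 and the ATF4 targets 0.13 on array 2194.

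Array 2199 was at the other end, which was also seen afterwards. It held the lowest signal of 9 of the 29 members, against 13.5% of all genes, and 7 of the 29 lay above their own median, against 48.8%. The 9 were Atf4, Xbp1, Asns, Ppp1r15a, Hsp90b1, Pdia4, Pdia6, Sdf2l1 and Herpud1. Dnajb9 differed, with its highest signal on that array. The mean log2 distance there was -0.44 in the sensors and transcription factors, -0.53 in the ATF4 targets, -0.23 in the lumenal genes and -0.09 in the degradation and translocation genes.

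Likeness to Hspa5, the usual marker of the chaperone arm, was measured by Pearson correlation over arrays. Because Hspa5 sets the pair apart from the other 6, no correlation coefficient (r) of a single gene is given over all 8. The counts over all 8, here and below, include that pair. By the exact two-sided permutation test over 8 arrays, 1 of 28 other members (3.57%), Dnajb11, correlated above 0 at an unadjusted p under 0.05, against 9.33% of all genes. Below 0 there were 0 of 28, against 6.69%. The smallest Benjamini-Hochberg adjusted p of a member, over all genes, was 0.27. Over arrays 2194 to 2199 alone Dnajb11 had r = 0.06 (exact permutation p = 0.919).

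Within arrays 2194 to 2199, 22 of 28 members (78.6%) had r above 0 with Hspa5, against 56.5% of all genes. Without arrays 2194 and 2195 it was 14 of 28, against 43.4%, and over all 8 arrays 13 of 28 (46.4%), against 57.2%. The share thus stayed above that of all genes without arrays 2194 and 2195, by less, and was below it over all 8 arrays. Why it changed with the arrays was not tested. At an unadjusted p under 0.05 there were 2 members (7.14%), against 2.29%. Hsp90b1 had r = 0.84 and rho = 0.94 (exact permutation p = 0.0236 and 0.0167, n = 6), and r = 0.61 without arrays 2194 and 2195. Sdf2l1 had r = 0.83 and rho = 0.94 (exact permutation p = 0.0347 and 0.0167, n = 6), and r = 0.69 without these arrays. Neither passed adjustment over all genes (permutation p adjusted by Benjamini-Hochberg 0.9998), and the smallest p that 6 arrays can give is 0.00139. On arrays 2074 and 2076, by contrast, Hsp90b1 was above and Hspa5 below its values on these 6. The values without arrays 2194 and 2195 rest on arrays 2196 to 2199 alone. On so few arrays r varied widely, from -0.95 in Sel1l to 0.997 in Atf6, and no p-value is given for it.

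Likeness to Trib3, chosen for the ATF4 arm, was found in 0 of 28 members above 0 at an unadjusted exact permutation p under 0.05, against 5.69% of all genes. The count was also 0 of 28 over arrays 2194 to 2199, against 5.45%. The lowest adjusted p of a member was 0.797 over 8 arrays, by the same permutation test. Trib3 was near the floor on several arrays, which limits this measure.

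Several members had more than 1 probe set, and these did not always follow each other. Besides the bright probe set 1371686_at of Canx described above, 1371687_at reached at least 3.37-fold with arrays 2074 and 2076 highest, and 1388442_at had 1.32-fold. For Edem1, 1384186_at (1.74-fold) was lowest on the pair like the brighter 1372533_at, while on 1395248_at (2.27-fold) the pair lay within the other 6. The second probe set of Atf6, 1384957_at, had at least 2.41-fold, was under the floor on 2 arrays and was highest on the pair. That of Pdia3, 1392920_at, had 1.85-fold and was lowest on the pair. The second probe set of Hyou1, 1370665_at, was under the floor on 5 arrays, so the wide range of Hyou1 rests on 1 probe set. Those of Trib3, 1370694_at and 1370695_s_at, were under the floor on 8 and 7 arrays, and that of Sesn2, 1396901_at, on 6. Which transcripts each probe set detects was not tested.

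**Figure D4:**
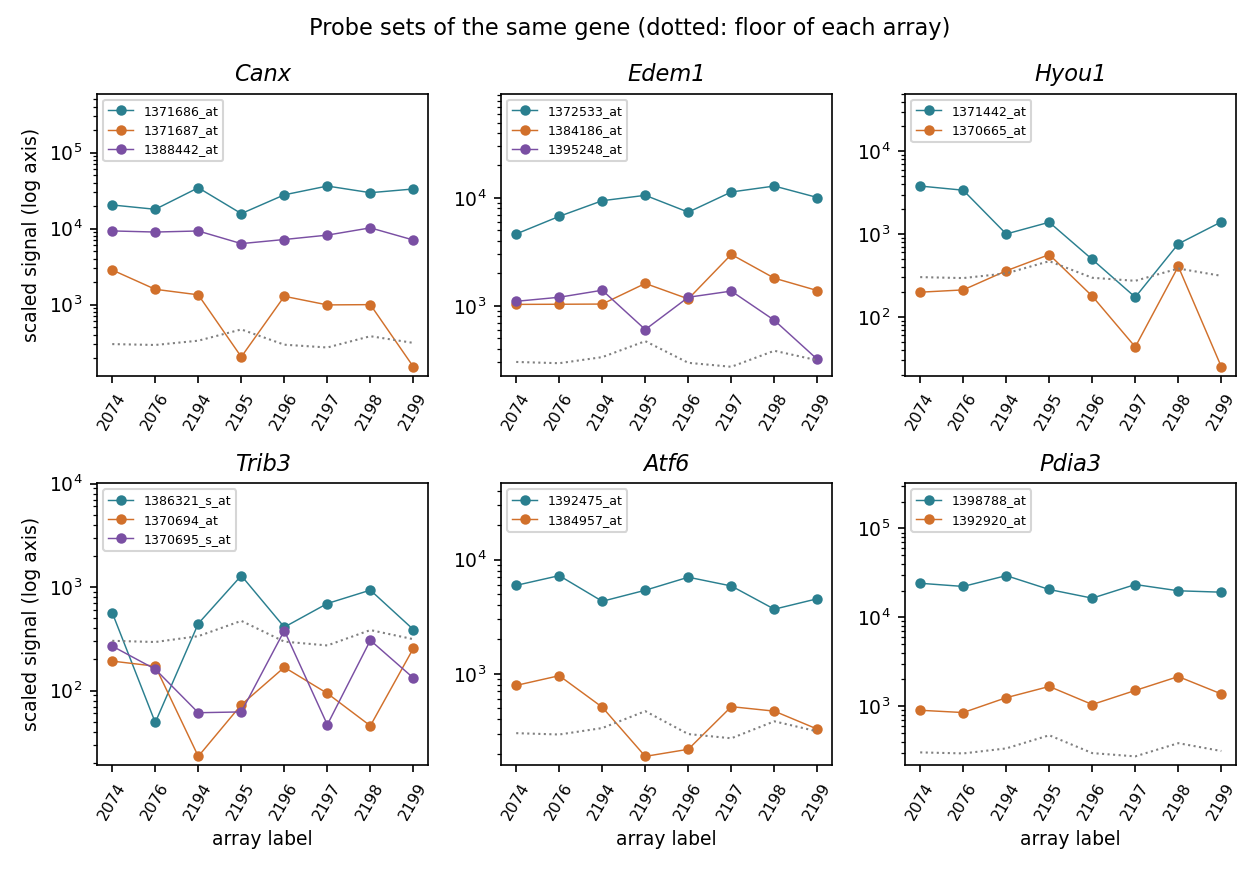
Scaled signal (log axis) of each probe set of 6 genes on 8 arrays, 1 colour per probe set, with the floor of each array dotted. The second probe set of Hyou1 lies under the floor of 273 to 471 on 5 arrays, and the probe sets of Canx and Edem1 differ in their course over the arrays.

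Other genes of the pathway, taken from 4 lists by role, showed a like share of wide genes. Of 95 listed, 88 were measured, and in 22 the inner range reached 2-fold (25%), against 29.8% of all measured genes. Arrays 2074 and 2076 lay beyond the other 6 in 33 of them (37.5%), against 28.1% of all genes, above in 21 and below in 12. The all-gene shares beside the following counts are 29.8% at 2-fold, 13.6% with the pair above and 14.5% with the pair below. In the list of other sensors and stress genes, 5 of 19 reached 2-fold. The widest were Atf3, a stress-induced transcription factor, at least 2.67-fold but under the floor on 4 arrays, and Atf6b, a relative of Atf6, at least 2.52-fold, with 1 array under the floor. Here the pair was above in 1 gene, Cebpb, and below in 1.

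Further ATF4 targets reached 2-fold in 4 of 21 genes, and the pair was above in 6 and below in 0. Ddit4, an inhibitor of mTORC1, gave 24666 and 21979.6 on the pair, whereas the other 6 lay between 6223 and 11092 (inner range 3.0-fold). Slc7a5, a transporter of large amino acids, had 2.80-fold and was under the floor on array 2199. The other 5 above on the pair were Cars1, Tars1 and Sars1, which charge transfer RNAs, and Phgdh and Psph, which make serine.

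Further folding genes reached 2-fold in 6 of 21, with the pair above in 5 and below in 4. P4hb, which encodes the classical protein disulfide isomerase, gave 40411 and 32215 on the pair, whereas the other 6 lay between 7915 and 12382 (3.60-fold). Txndc11, a thioredoxin-domain protein, had at least 3.18-fold and was also above on the pair, with 2 arrays under the floor. Further degradation and translocation genes reached 2-fold in 7 of 27, with the pair above in 9 and below in 7. Sec61a1, the pore subunit of the translocation channel, gave 19787.5 and 18777 on the pair, whereas the other 6 lay between 4048.5 and 6898 (3.58-fold). Ube2g2, a ubiquitin-conjugating enzyme of degradation, had 4.87-fold and was under the floor on array 2198. The pore subunit Sec61a1 thus set the pair apart, whereas its partner Sec61b gave 38747 and 38307 on the pair, within the 32329 to 61201 of the other 6.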

How the data were processed

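Per the labels, the RNA was total RNA purified on columns and biotin-labelled, with 1 Affymetrix array per sample. The values the authors deposited are signal intensity on a linear scale for 31099 probe sets (57 controls, left out), and the submitters' processing notes name MAS5. The mean after trimming 2% at each end was 1500.5 to 1500.6 on every array, so arrays had been scaled alike before deposit. MAS5 summarises each array alone and is noisy at low signal.

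Here, log2 signals were scaled so that arrays share the median of those probe sets that exceeded the array median throughout (shifts of -0.06 to 0.08 log2), and a floor was set at the 40th percentile. A gene was measured if its probe set lay above the array median on at least 2 arrays, and its brightest probe set stood for it. Of the probe sets 20826 had 1 symbol, 436 had several and were left out, and 9780 stayed unnamed. This gave 14217 named genes. Signals are printed before the floor and ranges taken after it. Correlations used exact permutation over all orders of the arrays (Python 3.11.15, numpy 2.4.6), and the step was tested on simulated data. The number of arrays limits the precision.

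All 8 arrays stayed without a group, so no group mean, error or test was computed. The members, lists and tests were chosen with earlier results of these data known. All members are named, with every array's value for the 2 widest genes of each role and for Hspa5, Ddit3 and Xbp1, and of other pathway genes the 2 widest per list. Genes named beyond this rule, values of arrays 2074 and 2076 against the rest and the counts on arrays 2194 and 2199 were chosen after values were seen. Alternatives were other scaling, floor, filter, probe set rule, spread, correlation and arrays. A search of protein motifs was planned and not run, since no protein sequences were used here.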

Additional observations from a re-analysis of the deposited data

How the results depend on the processing

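When genes had to lie above the median on all 8 arrays, the 6 members past 2-fold became 3 of 24 (all genes 19.3%). The count was 3 of 29 over arrays 2194 to 2199 alone, against 12%, and 8 of 29 with quantile normalization, against 27.7%. With the floor at the 25th percentile, or without a floor, it was 7 of 29, against 39.6%. With 1 array left out it was 3 to 6 of 29, against 18.7% to 25.1%, the 3 without array 2074, against 18.8%. With the full range, which is wider by construction, it was 19 of 29, against 71.4% of all genes. The medians were then 2.45-fold in sensors and transcription factors, 2.95-fold in ATF4 targets and 2.33-fold in lumenal genes, against 2.46-fold in all genes. That of degradation and translocation genes was 2.02-fold. The 1 member correlated with Hspa5 was 0 without scaling, against 6.99% of all genes, and 2 with quantile normalization, against 6.34%. It was 2 over arrays 2194 to 2199, against 2.2% of the genes measured there, and 0 to 3 with 1 array left out. The 0 came without 2074 or 2076, against 5.29% and 4.97%. Without 2195 it was 3, against 9.12%, and without 2199 it was 2, against 8.8%. The 0 members correlated with Trib3 were 0 to 1 with 1 array left out, the 1 without array 2198, against 4.56% of all genes. They could not be counted with the filter on all 8 arrays, which Trib3 did not pass. Alternatives for 3 counts were added after the data were seen. The 11 members with arrays 2074 and 2076 beyond the rest were 9 to 12, and 11 to 15 with 1 array left out, where all genes also gave more (14 of 29, against 43.5%, without array 2074, and 15 of 29, against 43.1%, without 2076). The 12 lumenal genes above their median on array 2194 were 11 to 12, against 43.2% to 52.4% of all genes. The 9 members lowest on array 2199 were 7 to 11, against 11.6% to 18.3%. Of 488 inner ranges of single genes under the alternatives, 31 moved by more than 1 SD over the arrays, most of them with the full range in place of the inner range. No paired analysis was possible because the labels give no groups. By Dixon's ratio on log2 signals after the floor, no array lay far from the other 7 in any member. Trib3 on array 2076 and Ddit3 on array 2195 were raised to the floor first, so the ratio does not show how far they fell. Signals near the floor limit Trib3, Ddit3, Eif2ak3 and the second probe set of Hyou1.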
